A study of Mus musculus with 20 samples.

Results

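Protein-coding mouse genes were grouped by 2 histone marks, trimethylated lysine 4 of histone H3 (H3K4me3) and trimethylated lysine 27 (H3K27me3), in dissected ganglia labelled CVG from C57BL/6J embryos at E11.5 (CVG is the usual abbreviation of the cochleovestibular ganglion, which holds the sensory neurons of the inner ear). The marks were mapped by CUT&Tag, in which an antibody directs a transposase to cut and tag the DNA beside its target. The antibodies of the libraries used here were to H3K4me3, H3K27me3, acetylated lysine 27 (H3K27ac), ISL1 and POU4F1, all on ganglia of the same strain and stage with no treatment named. Of 20 samples in the series 14 have a peak list, and 5 of these carry the comparison. The labels do not say whether replicates came from separate embryos or pools. A gene counted as marked when a peak overlapped by at least 1 bp the stretch of 1 kb on either side of its start or its end. Genes with an H3K4me3 replicate 2 peak and no peak in H3K27me3 replicate 2 or 3 formed the group with H3K4me3 only, which held 6693 of 21887 genes, 30.6% of all genes. Genes with a peak in both H3K27me3 lists and none in H3K4me3 replicate 2 formed the group with H3K27me3 only, with 2776 genes or 12.7%. A further 1367 genes, 6.25%, held H3K4me3 and H3K27me3 in both lists. The 3 groups together hold 10836 genes. Outside them stand 598 genes with H3K4me3 and H3K27me3 in 1 of the 2 lists, 1287 genes with H3K27me3 in 1 list alone, and 9166 genes with neither mark.

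H3K4me3 is placed by the KMT2 and SETD1 enzymes, mostly around the starts of genes that are transcribed or can be. H3K27me3 is placed by Polycomb repressive complex 2, whose catalytic subunit is EZH2, and covers silent developmental genes, often in long domains. H3K27ac marks active promoters and enhancers, and 1 lysine 27 cannot carry the acetyl and the trimethyl group together. Genes with H3K4me3 and H3K27me3 are well known from embryonic stem cells, where both marks can lie on the same nucleosomes. In lists from a whole ganglion, both marks on the same alleles and each mark in different cells cannot be told apart. The lists hold positions of marks and no RNA, so they give no transcript levels.

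The 2 libraries left out of the grouping stood apart from the rest. The list labelled H3K4me3 replicate 1 held 15785 peaks over 28.9 Mb, and its widest peak was 87.9 kb. Its Jaccard index, the bases shared by 2 lists divided by the bases covered by either, was 0.742 with H3K27me3 replicate 2 and 0.0360 with H3K4me3 replicate 2. It had a peak at 1.20% of the genes with H3K4me3 only, 96.5% of those with H3K27me3 only and 95.7% of those with both marks, against 21.3% of all genes. The library labelled H3K4me3 replicate 1 thus goes against its label and is called so throughout. H3K27me3 replicate 1 held 19243 peaks over 7.76 Mb, none of them 5 kb or wider, with a Jaccard index of 0.0811 with H3K27me3 replicate 2. Its peaks lay at 45.8%, 41.2% and 51.6% of the 3 groups in the same order, against 27.2% of all genes. Among the libraries that define the groups, H3K4me3 replicate 2 held 22425 peaks over 16.1 Mb, H3K27me3 replicate 2 held 14140 over 25.8 Mb and H3K27me3 replicate 3 held 39310 over 48.2 Mb. H3K27me3 replicate 3 covered 91.6% of the bases of replicate 2, and the Jaccard index of these lists was 0.471. H3K4me3 therefore rests on 1 library, with no replicate of its own. Read totals are not in the lists, so the depth behind a missing peak is unknown.

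Promoters from RefSeq (assembly GRCm38.p6, which shares its main chromosomes with mm10) are shown for genes with the widest peaks of each group. Each runs 5′ to 3′ from 250 bases before to 50 bases after an annotated start, and capitals mark CpG dinucleotides. Brd2 (chr17:34122558-34122857, minus strand) and Mex3b (chr7:82867083-82867382, plus strand) had H3K4me3 only. Hoxb8 (chr11:96281655-96281954, plus strand) and Nfix (chr8:84780033-84780332, minus strand) had H3K27me3 only. Isl2 (chr9:55540899-55541198, plus strand) held both marks on the promoter itself, and Gas8 (chr8:123518585-123518884, plus strand) held the marks at opposite ends of the gene, neither of them on the printed bases. The printed promoters of Hoxb8, Nfix and Isl2 belong to starts inside the gene and lie outside the 1 kb stretches used for grouping.
Brd2: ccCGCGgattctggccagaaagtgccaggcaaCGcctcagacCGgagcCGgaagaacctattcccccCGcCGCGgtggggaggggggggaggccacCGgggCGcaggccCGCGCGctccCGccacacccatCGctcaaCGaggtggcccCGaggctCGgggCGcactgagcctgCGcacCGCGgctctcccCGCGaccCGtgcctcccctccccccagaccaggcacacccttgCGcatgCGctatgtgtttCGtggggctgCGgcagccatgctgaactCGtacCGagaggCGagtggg
Mex3b: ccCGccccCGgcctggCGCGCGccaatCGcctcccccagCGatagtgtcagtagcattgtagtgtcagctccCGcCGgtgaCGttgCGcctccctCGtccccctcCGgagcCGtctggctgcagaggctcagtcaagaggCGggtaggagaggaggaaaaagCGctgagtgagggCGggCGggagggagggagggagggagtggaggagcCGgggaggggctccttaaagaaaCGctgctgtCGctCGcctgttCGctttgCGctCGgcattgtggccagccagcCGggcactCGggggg
Hoxb8: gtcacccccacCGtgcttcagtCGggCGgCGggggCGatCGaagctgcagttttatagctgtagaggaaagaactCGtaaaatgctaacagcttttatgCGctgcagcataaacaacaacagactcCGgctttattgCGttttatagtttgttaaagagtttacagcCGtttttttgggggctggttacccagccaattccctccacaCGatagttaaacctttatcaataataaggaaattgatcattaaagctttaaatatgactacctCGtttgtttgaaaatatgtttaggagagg
Nfix: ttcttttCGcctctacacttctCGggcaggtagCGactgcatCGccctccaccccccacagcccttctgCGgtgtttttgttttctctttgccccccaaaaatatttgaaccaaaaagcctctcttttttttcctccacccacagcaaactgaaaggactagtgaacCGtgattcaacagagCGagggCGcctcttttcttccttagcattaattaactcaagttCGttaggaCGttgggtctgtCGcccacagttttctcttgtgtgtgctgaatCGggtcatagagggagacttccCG
Isl2: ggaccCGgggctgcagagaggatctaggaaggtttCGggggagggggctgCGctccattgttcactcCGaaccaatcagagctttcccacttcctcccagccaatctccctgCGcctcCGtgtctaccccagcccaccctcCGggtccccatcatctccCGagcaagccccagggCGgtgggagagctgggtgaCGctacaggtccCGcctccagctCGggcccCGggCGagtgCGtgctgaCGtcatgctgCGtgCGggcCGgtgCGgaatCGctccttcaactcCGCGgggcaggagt
Gas8: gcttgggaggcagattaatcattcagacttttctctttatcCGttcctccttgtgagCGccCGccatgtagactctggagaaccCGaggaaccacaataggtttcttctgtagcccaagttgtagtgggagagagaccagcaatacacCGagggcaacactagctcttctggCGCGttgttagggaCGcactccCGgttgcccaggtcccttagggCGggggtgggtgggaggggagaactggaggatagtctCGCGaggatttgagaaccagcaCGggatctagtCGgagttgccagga

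All 300 bases of the Brd2 and Mex3b promoters lay in an H3K4me3 peak and in a peak of each of the 3 H3K27ac libraries, and no base lay in H3K27me3. All 300 bases of the Hoxb8 and Nfix promoters lay in both H3K27me3 lists, with no base in H3K4me3 or H3K27ac. The Isl2 promoter lay with 300 bases in H3K4me3, 300 in H3K27me3 replicate 2 and 293 in replicate 3, and with 300 in H3K27ac replicates 2 and 3. Of the Gas8 promoter 300 bases lay in H3K27ac replicate 3, and none in H3K4me3, in either H3K27me3 list or in the other H3K27ac libraries. Promoters of Pcdh17, Hoxa10 and H2-DMa fell under the same ranking and are not printed. Of Pcdh17, 300 bases lay in H3K4me3 and 284 in H3K27ac replicate 2, with none in H3K27ac replicates 1 and 3. Hoxa10 had 300 in both H3K27me3 lists and none in H3K4me3 or H3K27ac. H2-DMa had 300 in H3K4me3 and in each H3K27ac library, with none in H3K27me3. The CpG count was 32 for Brd2, 27 for Mex3b, 23 for Isl2, 14 for Gas8 and 13 for Hoxb8 and for Nfix. Over all 32851 promoter entries the median was 7 with quartiles of 3 and 20. A count as high as that of Brd2 was found in 9.52% of entries, and one as high as that of Hoxb8 in 37.9%. The CpG content was not compared between whole groups, because a promoter entry was found for 76.0% of the genes with H3K27me3 only, fewer than the 80% set as the minimum for such a comparison.

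At the genes of the 3 groups, H3K4me3 formed short peaks at gene starts, and the widest H3K27me3 peaks were broader. Over whole lists the median peak was 555 bp in H3K4me3 replicate 2, and 855 and 574 bp in H3K27me3 replicates 2 and 3. The widest H3K4me3 peak at a gene had a median width of 937 bp (quartiles 602 and 1428 bp) in the genes with H3K4me3 only. The median was 675 bp (509 and 1147 bp) in the genes with both marks. The widest H3K27me3 peak of the genes with H3K27me3 only had medians of 2731 bp in replicate 2 and 3690 bp in replicate 3. With both marks the medians were 2616 bp and 2992 bp. H3K27me3 peaks of 5 kb or wider stood at 24.2% of the genes with H3K27me3 only in replicate 2 and at 34.5% in replicate 3, and at 21.4% and 28.3% of the genes with both marks. H3K4me3 peaks that wide stood at 5 genes with H3K4me3 only and 6 with both marks. Neighbouring genes can share a peak: the 6693 genes with H3K4me3 only had 5728 distinct widest peaks, and the 2776 genes with H3K27me3 only had 2576 in replicate 2.

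**Figure D1:**
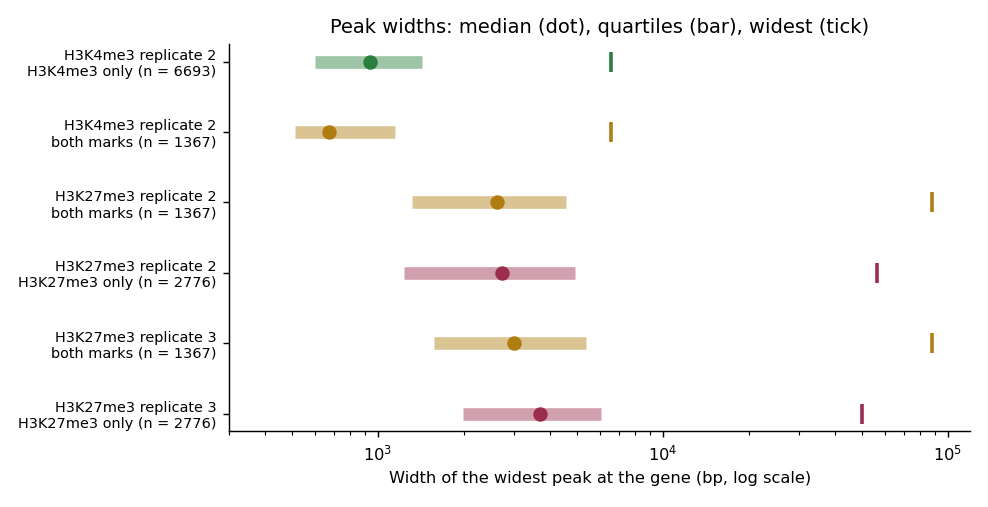
Width of the widest peak at each gene in base pairs (log scale), by library and group, with the median as a dot, the quartiles as a bar and the widest peak as a tick. H3K4me3 peaks of the genes with both marks (median 675 bp) were narrower than those of the genes with H3K4me3 only (937 bp), and H3K27me3 medians lay between 2616 and 3690 bp.

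Within the windows, H3K4me3 covered 6.15 Mb, or 23.1% of the window bases, at genes with H3K4me3 only and 0.946 Mb, or 17.4%, at genes with both marks. H3K27me3 replicate 2 covered 4.59 Mb (41.6%) at genes with H3K27me3 only and 2.08 Mb (38.2%) at genes with both marks. Replicate 3 covered 5.34 Mb (48.3%) and 2.23 Mb (40.9%). The covered share was lower with both marks than with 1 mark in each of the 3 lists.

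For 17492 of 21887 genes a strand was known, and the H3K4me3 peak lay at the start of the gene in 96.5% of 5486 such genes with H3K4me3 only and in 90.4% of 1033 with both marks. H3K27me3 replicate 2 lay at the start in 91.2% of 2110 genes with H3K27me3 only and in 90.2% of those with both marks. H3K4me3 coverage of the genes with H3K4me3 only peaked 350 bp after the start, where 73.0% of genes were covered. With both marks it peaked 550 bp after the start, at 53.9%. H3K27me3 replicate 2 covered 76.6% of the starts with H3K27me3 only, and at 2 kb after the start it still covered 45.9%, where H3K4me3 of the genes with H3K4me3 only covered 6.51%. In the genes with both marks H3K27me3 replicate 2 covered 67.1% of the starts and 45.2% of the positions 2 kb after them.

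**Figure D2:**
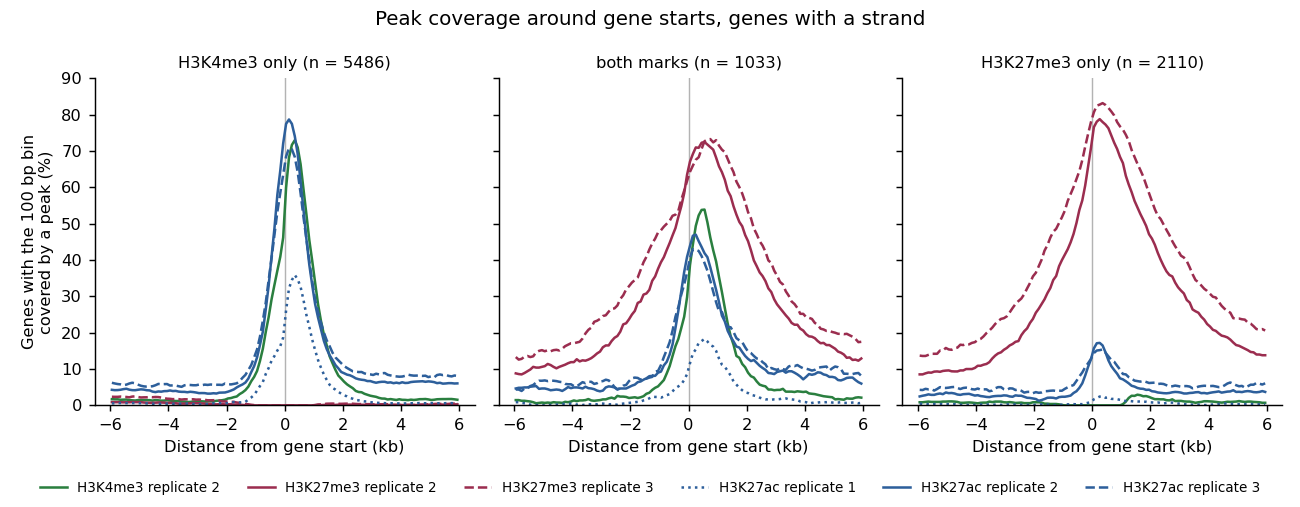
Share of genes (%) whose 100 bp bin lay in a peak, by distance from the gene start in kb, for genes with a known strand in each group (n in the panel titles). H3K4me3 peaked just after the start at 73.0% of genes with H3K4me3 only and at 53.9% with both marks. H3K27me3 was broad in the groups that hold it, and H3K27ac peaked in all 3 groups, lowest with H3K27me3 only.

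H3K27ac was most frequent with H3K4me3 only, intermediate with both marks and least frequent with H3K27me3 only. A peak in at least 2 of the 3 H3K27ac libraries lay at 89.5% of the genes with H3K4me3 only (95% Wilson interval 88.8 to 90.3%). The share was 67.6% (65.1 to 70%) with both marks and 28.7% (27 to 30.4%) with H3K27me3 only. It was 50.0% of all genes and 25.5% (24.6 to 26.4%) of the genes with neither mark. Intervals cover counting error only and treat genes as independent, although neighbours share peaks. No test was run, since the lists hold no read totals and genes are not replicates.

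The order held in each H3K27ac library, though the lists differ in length (8855, 106628 and 168144 peaks). In replicate 1 the shares were 55.7%, 33.1% and 6.12%, against 23.6% of all genes. In replicate 2 they were 92.0%, 73.4% and 38.6%, against 55.4%. In replicate 3 they were 89.9%, 76.3% and 48.5%, against 58.8%. The intervals of the 3 groups did not overlap in any library. Requiring a peak in both remaining libraries gave 52.6%, 29.2% and 3.78% without H3K27ac replicate 2, and 53.7%, 29.6% and 3.57% without replicate 3, since both then rest on the short list of replicate 1. All 3 libraries had a peak at 51.0% of genes with H3K4me3 only, 27.1% with both marks and 2.59% with H3K27me3 only. This share was 3.87% of the genes with neither mark. No library had a peak at 3.06%, 11.9% and 38.0% of the 3 groups in that order. Where H3K27ac lay at a gene with H3K27me3 only, it was at the gene end alone in 25.5% of genes with a known strand in replicate 2 and 27.7% in replicate 3, against 2.33% and 4.66% with H3K4me3 only. Counting gene starts alone, 18.0% of the genes with H3K27me3 only held H3K27ac.

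**Figure D3:**
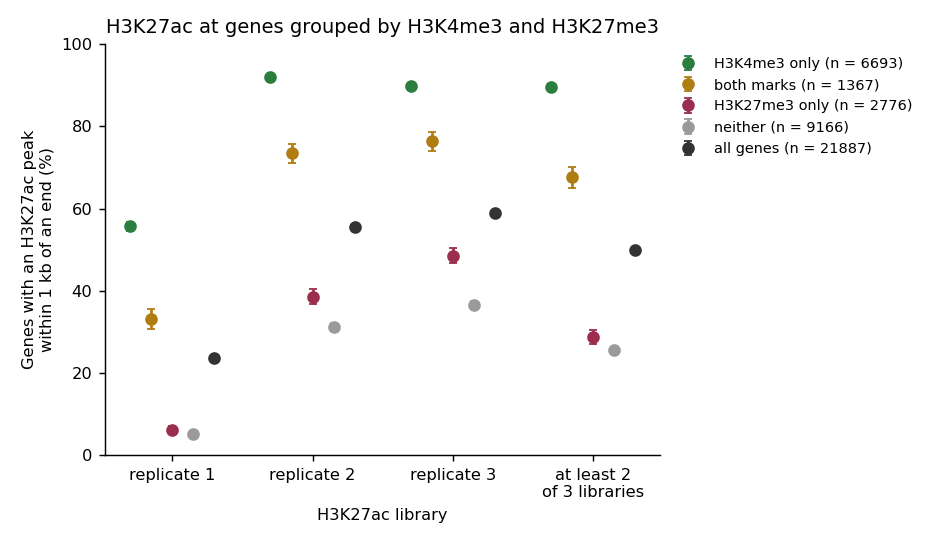
Share of genes (%) with an H3K27ac peak within 1 kb of a start or end in each library and in at least 2 of 3 libraries, by group (n in the legend), with 95% Wilson intervals as bars. Genes with H3K4me3 only were highest in every library (55.7% to 92.0%), those with both marks lay between, and H3K27me3 only was lowest of the 3 groups (6.12% to 48.5%). The last stood above the genes with neither mark (5.12% to 36.5%), but in replicate 1 their intervals overlapped (5.29 to 7.08% and 4.68 to 5.59%).

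Among genes with H3K4me3, H3K27ac went with the width of the H3K4me3 peak. When the peaks were split at widths of 579, 894 and 1393 bp, which part all such genes into 4 sets of near-equal size, 76.8%, 87.9%, 94.0% and 97.7% of the genes with H3K4me3 only held H3K27ac in at least 2 libraries. The shares with both marks were 49.8%, 66.9%, 78.8% and 92.9%. The genes with both marks were lower at each width. The gap was widest at the narrowest peaks, where the intervals were 74.6 to 78.8% and 45.4 to 54.2%, and smallest at the widest, where they were 96.8 to 98.3% and 89.1 to 95.5%.

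H3K27ac went the other way with the width of H3K27me3. Over mean widths of up to 1637, 3105 and 5230 bp and wider, 36.3%, 32.9%, 28.3% and 18.3% of the genes with H3K27me3 only held H3K27ac. The shares with both marks were 76.4%, 71.7%, 70.4% and 48.7%. In H3K27ac replicate 1 alone, the genes with H3K27me3 only showed no such order, with 5.88%, 8.23%, 4.64% and 5.86%. The shares were 47.1%, 43.4%, 38.4% and 26.7% in H3K27ac replicate 2, and 51.7%, 49.6%, 51.1% and 42.2% in replicate 3, where only the widest set was lower.

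**Figure D4:**
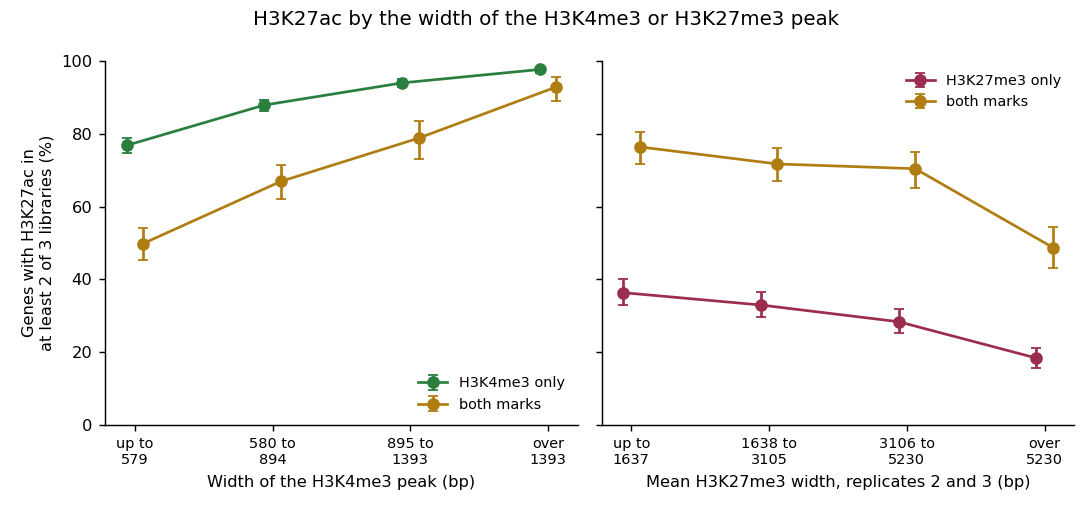
Share of genes (%) with H3K27ac in at least 2 of 3 libraries by the width in bp of the H3K4me3 peak (left) and by the mean width of the H3K27me3 peaks (right), with 95% Wilson intervals. The share rose from 49.8% to 92.9% with H3K4me3 width in the genes with both marks and went down from 76.4% to 48.7% with H3K27me3 width.

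The marks overlapped at most genes that held both. At 1032 of the 1367 genes, 75.5%, the widest H3K4me3 peak overlapped H3K27me3 in both lists, and at 609 (44.6%) it lay wholly inside H3K27me3 in both. These covered H3K4me3 peaks were narrow, with a median of 590 bp at genes with median H3K27me3 widths of 3795 and 4461 bp, and 52.4% of these genes held H3K27ac (48.4 to 56.3%). At 423 genes (30.9%) H3K4me3 was partly covered. These had a median H3K4me3 width of 1066 bp and H3K27me3 widths of 1612 and 1804 bp, and 82.7% held H3K27ac (78.9 to 86.0%). At the remaining 335 genes (24.5%) the marks did not overlap in both lists, and 76.1% held H3K27ac (71.3 to 80.4%). Wholly covered and partly covered genes also differed in the widths of both marks, and the share of H3K27ac was not separated from these widths. H3K27ac itself overlapped H3K27me3 at 76.5% of the genes with both marks that had a replicate 2 H3K27ac peak, and at 67.6% of those with H3K27me3 only. For H3K27ac replicate 3 these shares were 73.4% and 65.7%. The order was the other way for H3K27ac replicate 1, with 71.9% and 79.4%.

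The 10 widest H3K4me3 peaks without H3K27me3 were between 4645 and 6544 bp. Brd2 (chr17:34112019-34122814), a bromodomain protein that binds acetylated histones, had an H3K4me3 peak of 6544 bp and H3K27ac peaks of 5864, 5678 and 5687 bp in replicates 1 to 3. Kmt2e, a SET-domain protein of the KMT2 family, had 5871 bp, with H3K27ac of 4334, 2441 and 4055 bp. Acetylation spanned kilobases at both genes in every library. Pcdh17, a protocadherin, had 5763 bp of H3K4me3 with no H3K27ac peak in replicate 1 and peaks of 354 and 481 bp in the others. It was the one gene of the 10 with so little acetylation. The RNA-binding genes Mex3b (5244 bp), Igf2bp1 (5000 bp) and Mex3a (4758 bp), Cemip2 (4909 bp), a cell-surface hyaluronidase, Tubb2b (4667 bp), a neuronal beta-tubulin, and Pcbp4 (4645 bp), another RNA-binding gene, followed, together with a peak of 4689 bp shared by Anp32a and Gm20346. Each of these held H3K27ac in all 3 libraries.

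The longest H3K27me3 without H3K4me3 lay over Hox clusters and over single genes. Hoxb8 shared peaks of 48632 bp in replicate 2 and 41557 bp in replicate 3 with Hoxb3, Hoxb5, Hoxb7 and Hoxb9. Hoxa10 shared 56590 bp in replicate 2 with Hoxa3, Hoxa4, Hoxa7 and Hoxa9, and had 22811 bp in replicate 3. The long Hox domains were thus called in both lists, with unequal ends. Nfix, a nuclear factor I gene, had 16094 and 49966 bp, the largest difference between the lists among the 10 leading genes. Pax6, a regulator of eye and forebrain, had 19220 and 34741 bp. Nr2e1, a nuclear receptor of neural stem cells, had 25928 and 27999 bp, Tbx15, a regulator of the skeleton, 26588 and 26297 bp, and Hand2, a heart and limb factor, 29665 and 20292 bp. None of these 4 genes had an H3K27ac peak in any library. Hoxc12 (18511 and 41402 bp), Hoxc6 (34967 and 17654 bp) and Urad (31195 and 24548 bp), an enzyme gene of urate breakdown, completed the 10. Nfix was the only one of the 10 with any H3K27ac, a peak of 509 bp in replicate 2.

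The 5 genes with both marks and the widest H3K4me3 were H2-DMa, Isl2, Onecut1, Rsrc1 and Irx2. Isl2 (chr9:55538677-55547667), a LIM-homeobox gene of sensory and motor neurons, had 6323 bp of H3K4me3, 5631 and 6571 bp of H3K27me3, and H3K27ac of 8800 and 8589 bp in replicates 2 and 3 with none in replicate 1. At least 95.3% of its H3K4me3 peak was covered by H3K27me3 in each list. Onecut1, a cut-homeobox factor, had 5450 bp of H3K4me3, 13282 and 5225 bp of H3K27me3, and H3K27ac of 600, 5310 and 1329 bp. Both genes thus held wide peaks of all 3 marks. Irx2, an Iroquois homeobox gene, had 5399 bp of H3K4me3 under 2920 and 6514 bp of H3K27me3 and a single H3K27ac peak of 479 bp. Rsrc1 and Shox2 shared an H3K4me3 peak of 5407 bp that spanned both of their starts, and both had H3K27ac in 3 libraries. H2-DMa, a chaperone of antigen presentation, shared the 6544 bp peak of Brd2 at one of its ends, while its H3K27me3 (1844 and 1479 bp) lay at the other, so its 2 marks did not meet.

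Genes with both marks led by H3K27me3 width had narrow H3K4me3 and little acetylation. Gas8 (chr8:123518835-123536657), a gene of the axoneme of cilia, had the longest H3K27me3 of all, 87687 and 88264 bp, beyond its end, and 596 bp of H3K4me3 at its start. Its only H3K27ac peak was 728 bp in replicate 3. Hoxb6 had 363 bp of H3K4me3 and Hoxa6 622 bp, shared with Hoxa5, each wholly inside the Hox domain, and neither had H3K27ac. Cdx2, a factor of the trophectoderm and gut, had 675 bp of H3K4me3 inside the H3K27me3 peaks it shares with Urad, and 386 bp of H3K27ac in replicate 3 alone. The predicted gene Gm40365 and 5 other predicted genes shared H3K27me3 of 35405 bp in each list and no H3K27ac.

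Gene functions differed between the groups, described here by 41 lists with 2996 genes in all, beside the shares of all genes (30.6%, 12.7% and 6.25%). Genes of general cell upkeep lay with H3K4me3 only. Of 25 housekeeping genes 19 had H3K4me3 only and none was in the other groups, and Gapdh led with 3737 bp. Of 84 cytosolic ribosomal protein genes 71 had H3K4me3 only and 2 both marks. Of 38 subunit genes of respiratory complex I 29 had H3K4me3 only, as had 51 of 78 mitochondrial ribosomal protein genes and 26 of 39 proteasome genes. Of 58 histone genes 27 had H3K4me3 only and 31 neither mark, while 55 held H3K27ac. Of 397 zinc finger genes named Zfp 182 had H3K4me3 only, 20 H3K27me3 only and 10 both marks. Among 20 genes of the cell cycle and replication, 14 had H3K4me3 only, among them Mcm7 (2038 bp), a subunit of the replicative helicase. Ccnd2, cyclin D2, had H3K27me3 only (7542 and 4499 bp), and Ccnd1, cyclin D1, had both marks without overlap.

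**Figure D5:**
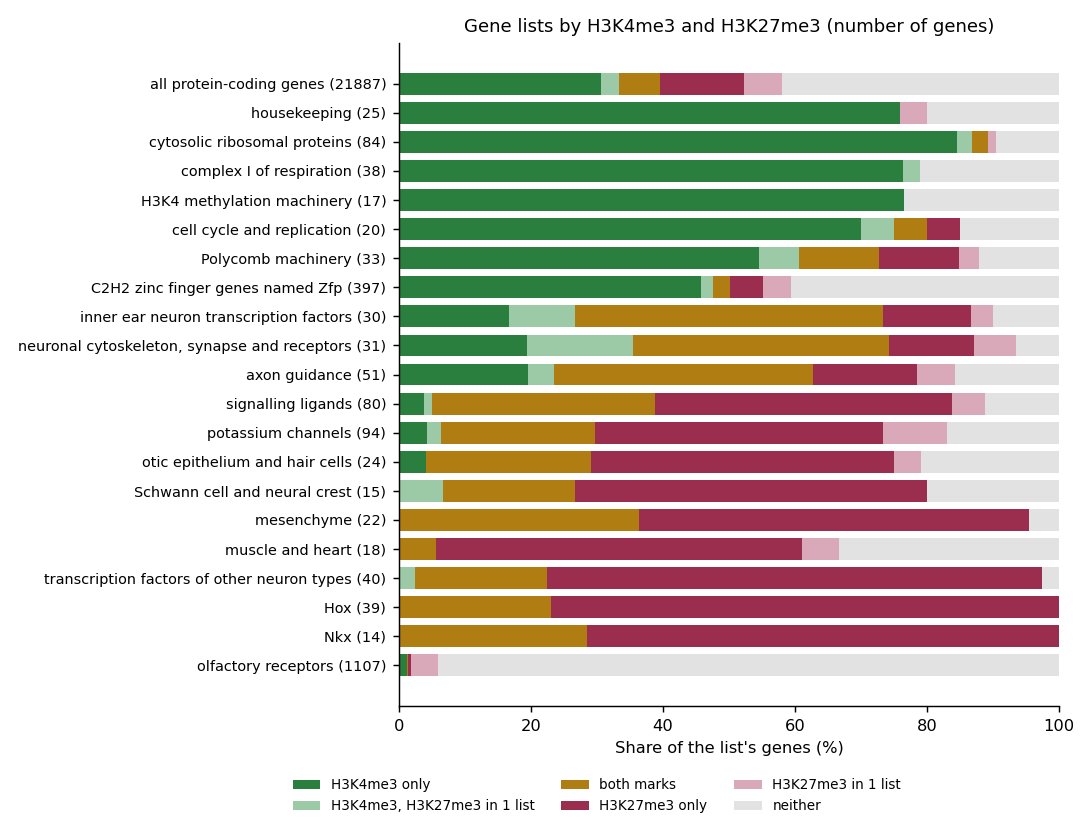
Share of each gene list (%) in each group, with the number of genes of the list in parentheses and all protein-coding genes at the top. Housekeeping and ribosomal lists were mostly H3K4me3 only, 46.7% of inner ear neuron factors and 39.2% of axon guidance genes held both marks, and Hox, Nkx and other neuron types were mostly H3K27me3 only.

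Isl1 (chr13:116298270-116309688), the LIM-homeobox factor that the study targeted, fell among the genes with both marks. It had an H3K4me3 peak of 3952 bp over its start and H3K27ac of 2992, 2466 and 2067 bp in replicates 1 to 3. H3K27me3 replicate 2 had a peak of 1766 bp inside the H3K4me3 peak, whereas the replicate 3 peak of 797 bp lay at the other end of the gene, so the 2 lists did not place H3K27me3 on the same stretch. Pou4f1 (chr14:104461675-104468118), the POU-homeobox factor targeted beside it, lay outside the 3 groups. It had 1122 bp of H3K4me3, H3K27ac of 674, 1639 and 2216 bp, and 6657 bp of H3K27me3 in replicate 2 next to the gene with none within 1 kb in replicate 3.

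Many transcription factors of inner ear neurons held both marks together with acetylation. Of 30 such genes 14 had both marks, which is 46.7% beside 6.25% of all genes, 5 H3K4me3 only and 4 H3K27me3 only, and the median H3K4me3 width over the genes of the list that held it was 2625 bp. H3K27ac lay at 13 of the 14. Sox11 (4236 bp), Sox4 (4026 bp) and Eya1 (2690 bp) had H3K4me3 without H3K27me3. Tlx3, a homeobox factor of sensory neurons, had 4480 bp of H3K4me3, of which at least 84.7% was covered by H3K27me3 in each list, with H3K27ac of 2211, 4129 and 4375 bp. The bHLH genes Neurod1 (2427 bp of H3K4me3, 1301 and 2175 bp of H3K27me3) and Neurog1 (1112 bp, 5314 and 1579 bp), which drive the birth of these neurons, also had both marks, with H3K27ac in 3 and 2 libraries. These 2 were chosen after their values were seen. Gata3, a factor of auditory neurons and otic epithelium, had H3K27me3 only (11433 and 11160 bp) with 1 H3K27ac peak of 634 bp. Lhx2 had H3K27me3 only and no H3K27ac.

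Genes of the neuronal cytoskeleton, synapse and receptors also often held both marks. Of 31 genes 12 had both marks (38.7%), 6 H3K4me3 only and 4 H3K27me3 only, and 27 held H3K27ac. Gap43, a growth cone protein, had 2457 bp of H3K4me3 and Stmn1, a tubulin-binding protein, 2116 bp, both without H3K27me3. Nefm, a neurofilament subunit, had 3095 bp of H3K4me3 with 1750 and 1019 bp of H3K27me3 and H3K27ac in 3 libraries. Among 51 axon guidance genes 20 had both marks and 12 of those held H3K27ac, among them Efna3 (2129 bp of H3K4me3 inside 5600 and 5601 bp of H3K27me3). Efna5, an ephrin, had 4602 bp of H3K4me3 without H3K27me3.

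Factors of other neuron types showed H3K27me3 with little else. Of 41 names 40 matched the gene table, and of these 30 had H3K27me3 only, 8 both marks and none H3K4me3 only. H3K27ac lay at 2 of the 40. The median H3K4me3 width of those that held it was 517 bp, against 2625 bp for inner ear neuron factors, and the median H3K27me3 width, likewise over genes that held it, was 12542 bp, against 2835 bp. Mnx1, a motor neuron factor, had 21617 and 27566 bp of H3K27me3, and Lbx1, a factor of dorsal spinal neurons, 23970 and 25169 bp, neither with H3K27ac. Lmx1a, with 911 bp of H3K4me3 and H3K27ac in replicates 2 and 3, was the exception among the 8 with both marks.

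Lists for other cell types, of the ganglion's surroundings and of other tissues, differed in their share with H3K27me3 only, from 59.1% in mesenchyme to 15.4% in the germline. Of 24 genes of otic epithelium and hair cells 11 had H3K27me3 only, 6 both marks and 1, Jag1, H3K4me3 only. Of 15 genes of Schwann cells and neural crest 8 had H3K27me3 only and 3 both marks. Those 3 were Erbb3 (3033 bp of H3K4me3), Sox10 (2725 bp) and Sox9 (1509 bp), all with H3K27ac in at least 2 libraries. The 4 genes of the list with H3K4me3, these 3 and Ednrb (588 bp, with H3K27me3 in 1 list), had a median width of 2117 bp, beside 2625 bp for the neuron factors, and the part of glial cells in the results was not tested. Of 22 mesenchyme genes 13 had H3K27me3 only and 8 both marks, with a median H3K4me3 width of 669 bp and H3K27ac at 6 of the 22. Of 18 genes of endothelium and blood 5 had H3K27me3 only, 2 both marks and 2 H3K4me3 only, and 7 had neither mark. Of 18 genes of muscle and heart 10 had H3K27me3 only and 1, Hand1, both marks. Of 17 genes of gut, liver and pancreas 6 had H3K27me3 only and 2 both marks, with Foxa2 at 22212 and 22377 bp. Of 13 germline genes 2 had H3K27me3 only and 8 neither mark.

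Genes of the machinery behind the marks fell mostly with H3K4me3 only. Of 17 genes for H3K4 methylation and its removal 13 had H3K4me3 only, led by Kmt2c (2984 bp), Men1 (2683 bp) and Kmt2a (2091 bp), all with H3K27ac in 3 libraries. The other 4, Ash2l, Wdr5, Dpy30 and the Y-linked Kdm5d, had neither mark. Of these, Wdr5 (2129 and 1792 bp) and Dpy30 (509 and 767 bp) held H3K27ac in replicates 2 and 3, and Ash2l and Kdm5d held none. Of 33 Polycomb genes 18 had H3K4me3 only, among them Ezh2 (2217 bp), the methyltransferase, and its partner Jarid2 (3466 bp). Genes with H3K27me3 only included Pcgf5 (4776 and 5434 bp) and Phf19 (4731 and 5582 bp), with the peaks over the start. Bmi1 was a further one, but its widest peaks (4956 and 6894 bp) lay at the end of the gene and beyond it. Both marks lay at Cbx8, Epop, Pcgf1 and Kdm6b, the last an H3K27 demethylase. The widest H3K4me3 peaks of Pcgf1 and Kdm6b did not overlap H3K27me3 in both lists, whereas that of Epop lay wholly inside it. Cbx8, which binds H3K27me3, had 375 bp of H3K4me3 inside 21535 and 11636 bp of H3K27me3. The 18 Polycomb genes with H3K4me3 only were 54.5% of the 33, beside 30.6% of all genes. With H3K27me3 only there were 4 (12.1%), near the 12.7% of all genes, and with both marks 4 (12.1%), beside 6.25%. Among 7 Cdk inhibitors, 2 had H3K4me3 only (Cdkn1a and Cdkn1b), Cdkn2b H3K27me3 only, and Cdkn1c, Cdkn2a and Cdkn2c both marks. The widest H3K4me3 peak of Cdkn1a (557 bp) lay near the end of the gene, with H3K27ac in 1 library. That of Cdkn1b (2020 bp) lay over its start, with H3K27ac in 3 libraries. Cdkn1c held H3K27ac of 505, 3250 and 2765 bp, and Cdkn2a held none.

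Developmental gene families mostly held H3K27me3, with or without H3K4me3. All 39 Hox genes held H3K27me3 in both lists, 30 without H3K4me3 and 9 with it, and H3K27ac lay at 4. Hoxa2, a gene of hindbrain patterning, had 644 bp of H3K4me3 inside H3K27me3 and H3K27ac of 496, 1082 and 375 bp. The 14 Nkx genes divided 10 to 4 and the 9 Pax genes 6 to 3, with H3K27ac at none of them. Of 8 Lhx genes 7 had H3K27me3 only. Of 6 Irx genes 4 had both marks, among them Irx1 (4832 bp of H3K4me3, H3K27ac of 1499, 2896 and 3714 bp). Of 44 Fox genes 18 had H3K27me3 only, 9 H3K4me3 only and 8 both marks. The 9 included Foxo3 (3432 bp), a factor of stress responses found in many tissues. Of 19 Sox genes 8 had H3K27me3 only, 6 both marks and 3 H3K4me3 only, namely Sox4, Sox11 and Sox12, the SoxC genes of differentiating neurons. Of 80 signalling ligands 36 had H3K27me3 only and 27 both marks. Wnt1 led with 22745 and 12772 bp of H3K27me3.

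Of 94 potassium channel genes 41 had H3K27me3 only and 22 both marks, of which 14 held H3K27ac. Kcna1 had 1722 bp of H3K4me3 inside 6750 and 5232 bp of H3K27me3. Of 57 clustered protocadherin genes 16 had H3K27me3 only and 12 of these held H3K27ac, but many share 1 H3K27ac peak: Pcdhgb7, Pcdhgb6 and Pcdhga12 have the same peaks of 5387 and 3004 bp. Of 1107 olfactory receptor genes 1042 had neither mark, and 342 of 353 vomeronasal receptor genes and 38 of 42 beta-defensin genes did too.

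ISL1 peaks, called in at least 2 of 4 libraries, lay at 38.2% of the genes with H3K4me3 only (37.1 to 39.4%), 24.4% of those with H3K27me3 only (22.8 to 26%) and 42.8% of those with both marks (40.2 to 45.4%). The shares were 23.7% of all genes and 10.4% of those with neither mark. The order differed between ISL1 libraries. In the library labelled ISL1_70 replicate 2 the shares were 12.9%, 17.5% and 22.5%, and in ISL1_70 replicate 1 they were 50.7%, 28.4% and 48.4%. POU4F1 replicate 1 lay at 16.9%, 13.0% and 19.2%, against 12% of all genes. POU4F1 replicate 2 lay at 10.8%, 7.24% and 9.95%, against 8.14%. Within the genes with both marks, 49.4% of those with H3K27ac in at least 2 libraries held ISL1, as did 27.1% of those with H3K27ac in 1 library and 32.5% of those with none.

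Most H3K4me3 peaks were not near a gene start or end. Of the 22425 peaks of replicate 2, 14333 (63.9%) lay farther than 1 kb from either, with a median width of 500 bp, and 15.7% of them overlapped H3K27ac in at least 2 libraries. The 8092 peaks near a start or end had a median of 796 bp, and 74.9% overlapped H3K27ac. H3K27me3 in both lists overlapped 1888 H3K4me3 peaks (8.42%). Within 1 kb of a gene start or end, 51.3% of the peaks with H3K27me3 in both lists held H3K27ac (48.3 to 54.3%). The share was 78.9% of those with H3K27me3 in neither (77.9 to 79.9%). Farther than 1 kb from a start or end the order was reversed, with 31.6% (28.6 to 34.9%) against 14.3% (13.7 to 14.9%). These farther peaks were not divided into those inside genes and those between genes. The 3 groups were spread over all autosomes. They were less frequent on the X chromosome for H3K4me3 only, with 15.1% of 966 genes, than on any autosome, where the lowest share was 24.2% on chromosome 7.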

How the data were processed

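CUT&Tag libraries of ganglia labelled CVG were analysed from the authors' peak lists, 1 per library with replicates not pooled. The peak names carry MACS2 and the word control, per the file headers. The submitters' processing notes further name FastQC, Bowtie2, SEACR and the mm10 build; which step each tool served, and its version, is not given in the sources used here. The deposited values of a peak are its fold enrichment (a ratio), a −log10 p-value, a −log10 q-value and the summit offset (other). Every list reached down to a −log10 q of about 1, and folds and q were not compared between lists. A deeper library gives more peaks, so a missing peak can reflect depth, which is unknown. The 6 IgG samples were not analysed here.

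Of the peaks, those on chromosomes 1 to 19, X or Y were compared with 21887 protein-coding genes of a RefSeq table (assembly GRCm38.p6, which shares its main chromosomes with mm10). Windows of 1 kb lay on each side of a gene's start and end, with at least 1 bp of overlap. Strand came from RefSeq promoter entries and was known for 17492 genes. For each gene the widest peak of a list in its windows gave the width and the share covered by H3K27me3. H3K27ac and ISL1 counted with a peak in at least 2 libraries. The 95% Wilson intervals cover counting error only. Python 3.11.15, numpy 2.4.6, pandas 2.3.3, scipy 1.17.1 and matplotlib 3.10.9 were used, and the grouping was tested on simulated data.

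The groups, the gene lists (1 symbol, Drgx, did not match) and the rules were chosen with earlier results of these data known. Named genes are Isl1 and Pou4f1, the 10 genes with the widest peaks per group (5 per mark for both marks), up to 3 per list and group, and all machinery genes outside H3K4me3 only; a few genes that these rules name are not reported here. The splits by width and the use of H3K27me3 replicate 1 were added after seeing the data. Promoter comparisons between groups were void, since fewer than 80% of some groups had an entry.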

Additional observations from a re-analysis of the deposited data

Results flagged for a closer look

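The 2 lists that stand outside the grouping carried signal at its genes. The library labelled H3K4me3 replicate 1 had a peak at 1.20% of the genes with H3K4me3 only, at 96.5% of those with H3K27me3 only and at 95.7% of those with both marks, where all genes give 21.3%. It covered 90.3% of the bases of H3K27me3 replicate 2 and 9.75% of those of H3K4me3 replicate 2. H3K27me3 replicate 1 had a peak at 45.8% of the genes with H3K4me3 only, 41.2% of those with H3K27me3 only and 51.6% of those with both marks, where all genes give 27.2%. It covered 9.76% of the bases of H3K27me3 replicate 2 and 10.7% of those of H3K4me3 replicate 2. The cause was not tested in either case.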

How the results depend on the processing

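The order of the H3K27ac shares (H3K4me3 only, both marks, H3K27me3 only) held in 15 of 16 alternatives. The exception put the library labelled H3K4me3 replicate 1, which goes against its label, in place of replicate 2. H3K27ac then lay at 72.4% of 145 genes with a peak of that library alone, 40.9% of 3987 with that library and H3K27me3, and 56.4% of 156 with H3K27me3 alone. These groups do not stand for the 2 marks. Shares follow below as H3K4me3 only, both marks and H3K27me3 only. Windows of 0.5 kb gave 87.8%, 60.2% and 22.6%, and windows of 2 kb 90.8%, 72.8% and 37.6%. Gene starts alone gave 88.2%, 60.8% and 18.0%, with 844 genes of both marks. A minimum of 500 covered bp gave 83.0%, 54.8% and 16.6%, with 701 genes of both marks. Genes whose windows hold no end of another gene (16461) gave 87.3%, 64.3% and 26.3%, with 3940 genes of H3K4me3 only. The 14140 best peaks of each list gave 91.5% for H3K4me3 only and 72.1% for both marks, and H3K27me3 in at least 1 list gave 72.5% for both marks. H3K27ac in at least 1 library gave 96.9%, 88.1% and 62.0%. Adding H3K27me3 replicate 1, chosen after seeing the data, left 3628 genes with H3K4me3 only (84.8% with H3K27ac), 705 with both marks and 1143 with H3K27me3 only. A −log10 q of at least 2 kept every group within 1.5 times its size.

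Leaving out 1 H3K27ac library gave 52.6% to 85.3% for H3K4me3 only, 29.2% to 63.0% for both marks and 3.57% to 26.5% for H3K27me3 only. Leaving out 1 H3K27me3 list gave 89.1% to 89.5%, 69.0% to 71.6% and 28.9% to 29.3%, over 6787 to 7197, 1461 to 1871 and 2860 to 3979 genes. With the peak nearest to a gene start or end in place of the widest, the median H3K4me3 width was 899 bp for H3K4me3 only and 646 bp for both marks. The median H3K27me3 widths were then 2375 and 3053 bp (replicates 2 and 3) for H3K27me3 only and 2248 and 2545 bp for both marks. Asking for at least 50% of the H3K4me3 peak to be covered gave 62.9% in place of 75.5% of the genes with both marks. The comparison of promoter CpG between groups was not run, because too few genes had an entry. No paired analysis was possible because the results come from no test. H3K4me3 rests on 1 library, depth is unknown, and the windows hold gene ends as well as starts.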
